A study of Rattus norvegicus with 14 samples.

Results

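Methyl-Seq of rat dorsal hippocampus gave tag counts in 310070 genomic regions, and 29185 of them on chromosomes 1 to 20 were short, which here means at most 300 bp from start to end. The rule that chose them used position and length only, and they made up 9.41% of all regions. Length itself came from calling and merging peaks in these same libraries, so the choice is not independent of the counts. Short regions covered 7520428 bp, or 3.7% of the sequence in the table, and held 1167114 tags, or 0.899% of all tags. Most of them held few tags, and the share that passed a test between groups was below or near that of all regions. In the 45 best covered of them (300 to 777 tags), the median spread between animals of a group was close to counting error. Over all short regions the median was 1.47 times the counting variance.

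Male Wistar rats (300 to 350 g) formed 3 groups, and each animal was processed on its own without pooling. The 5 CTRL rats received methyl scopolamine (1 mg/kg) and saline and ate standard diet. The 4 PILO rats received the same methyl scopolamine and then pilocarpine (340 mg/kg), a muscarinic receptor agonist that induces status epilepticus, with diazepam (8 mg/kg) after status epilepticus, and ate standard diet. The 5 PILO + KD rats were treated as PILO rats but were fed a ketogenic diet, which is rich in fat and poor in carbohydrate and is used against seizures. A second pilocarpine dose of 175 mg/kg was given where the first induced no status epilepticus, and which animals received it is not given in the sources used here. The paper also reports recording electrodes, implanted under ketamine and xylazine, in some PILO and PILO + KD rats, without naming the animals. The observation period was 84 days in all groups, and the ages of the animals are not given. DNA came from pieces of whole dorsal hippocampus, so a change of methylation within cells and a change in the mix of neurons, glia and other cells cannot be told apart in any value below.

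DNA methylation in mammals is mostly the addition of a methyl group to cytosine in CpG dinucleotides. In Methyl-Seq, fragmented DNA is bound to a methyl-CpG binding domain protein, washed, released with salt and sequenced, so that a stretch with many methylated CpGs gives many tags and a stretch with few gives little more than background. The count of a region therefore depends on its length, its CpG content and its methylation together. A tag is 1 sequenced read of 36 bp after removal of duplicates, and DNA had been broken to a median of 200 to 300 bp before capture, so a short region is about as long as 1 captured fragment. The regions themselves came from peak calling between all pairs of these same libraries, followed by merging, so a region entered the table because at least 1 pair of libraries differed there. The lengths, the tag sums and the spread between animals described below are thus not independent of how the regions were found. Regions are named by position on the RN4 build, counted from 1. Neither their sequence nor the genes around them are given, because annotation of that build was not used here.

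Total tags ranged from 6972700 to 12391666 per animal. A single tag was worth 0.0822 to 0.154 CPM (tag counts scaled to a common library size with TMM), and the limit that a count of 0 allows, 3 tags, was 0.247 to 0.462 CPM, by counting error only. Libraries were run on 4 flow cells, of which FC101 held 3 CTRL, 3 PILO and 2 PILO + KD libraries and was the only one with more than 1 animal of any group. No 2 libraries of a group agreed within sampling noise (their chi-square was 1.60 to 4.11 times its degrees of freedom).

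Short regions were mostly just under the length limit. Lengths ran from 154 to 300 bp, the median was 263 bp, and 18528 were longer than 250 bp, 9236 were longer than 200 bp and up to 250 bp, and 1421 were 200 bp or shorter. The shortest, chr11:26024638-26024791 (154 bp), held 37 tags over all 14 animals, with 1, 2, 4, 2 and 1 in CTRL, 4, 5, 5 and 3 in PILO and 1, 4, 3, 0 and 2 in PILO + KD. The next shortest, chr8:18598551-18598705 (155 bp), held 63 tags, with 3 to 6 in every animal. Both were among the regions whose counts were too low for a test after filtering.

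The tag sum of a short region, added over the 14 animals, ranged from 1 to 777 with a median of 34 and quartiles of 23 and 48. Sums of 25 to 49 were the most common (14146 short regions, 48.5%), another 5858 had 50 to 99, and 8271 had fewer than 25. Per animal this came to a median of 1 to 4 tags. A tag was found in every one of the 14 animals in 5806 short regions (19.9%), against 71.2% of all regions, and in 2796 short regions (9.58%) at least 7 animals had no tag. A whole group was without a tag in 555 short regions, which were 175 regions for CTRL, 297 for PILO and 119 for PILO + KD. PILO had 4 animals and the other groups 5 each, which alone makes a whole group of zeros likelier in PILO. The 3 counts can therefore not be compared directly. The largest sum of any such region was 46, so counts of 0 in a whole group occurred only where few tags were present in the other groups too.

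The study removed regions whose tag sum was below the 50th centile, which was 129 tags. Of 29185 short regions, 473 (1.62%) had 129 tags or more and 28712 had fewer, whereas 50.0% of all regions passed. Above 200 bp, the passing share rose with length. It was 1.2% at up to 200 bp, 0.736% in the next 50 bp, 2.09% in the last 50 bp below the limit and 4.37% in the first 50 bp above it, and it was 50.9% just below 600 bp and 98.3% just below 1000 bp. At exactly 300 bp, 15 of 414 regions passed and the median sum was 43 tags, and among regions 1 bp longer, 12 of 401 passed and the median was 40. The best covered region of exactly 300 bp, chr18:66471394-66471693, held 357 tags, and the best covered region 1 bp over the limit, chr18:57642808-57643108, held 533.

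**Figure D1:**
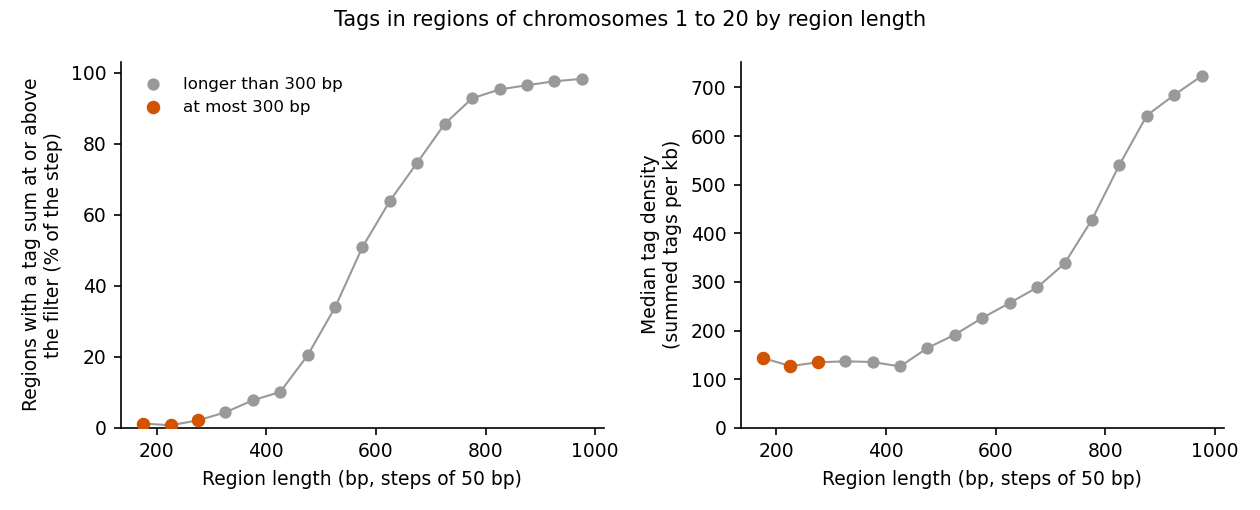
Left, percent of regions on chromosomes 1 to 20 with a tag sum of 129 or more, by region length in steps of 50 bp. Right, median tags per kb, summed over the 14 animals. Short regions (orange) passed in 0.736 to 2.09% of cases and had about the same median density, 127 to 144 tags per kb, as regions of up to 450 bp, while both values rose from there on.

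Low sums were not a matter of length alone. The median density of short regions was 133 tags per kb, against 480 in regions over 600 bp and under 2000 bp and 1490 in regions of 2000 bp or more. Up to 450 bp, the median density of successive 50 bp steps stayed between 126 and 144 tags per kb. The short regions that passed the filter were dense for their length, with a median of 639 tags per kb, which the filter itself requires. Longer regions whose sums fell in the same range of 129 to 777 tags had a median of 394.

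The highest sums belonged to chr18:63151976-63152248 (777 tags in 273 bp), chr9:112845623-112845920 (767 tags in 298 bp) and chr18:27761393-27761641 (578 tags in 249 bp), which were also the densest short regions, at 2846, 2574 and 2321 tags per kb. All 3 held 25 tags or more in every animal. For chr18:63151976-63152248 the CTRL animals had 6.36, 6.04, 6.18, 6.07 and 6.21 CPM, the PILO animals 8.29, 5.18, 6.17 and 6.81, and the PILO + KD animals 7.62, 6.11, 4.52, 7.30 and 8.06. The CTRL values lay within the range of both other groups. Group means for chr9:112845623-112845920 were 6.39 ± 0.577 CPM in CTRL (SD, n = 5), 6.61 ± 1.35 in PILO (n = 4) and 6.33 ± 1.23 in PILO + KD (n = 5), and the groups overlapped. Those for chr18:27761393-27761641 were 4.68 ± 0.427, 4.60 ± 0.649 and 5.00 ± 0.724 CPM, again with overlap.

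Short regions were spread over all 20 chromosomes. They made up between 8.34% (chromosome 20, 781 regions) and 10.6% (chromosome 9, 1430 regions) of the regions of a chromosome, and chromosome 1 held the most, 2902. Their number per Mb ran from 8.74 on chromosome 2 to 19.2 on chromosome 12. The 473 that passed the filter included 48 on chromosome 1, 38 on chromosome 2, 36 on chromosome 7 and 9 on chromosome 13. Short regions lay neither closer to nor farther from their neighbours than regions in general, with a median gap to the nearest region of 1579 bp against 1573 bp for all regions. A neighbour within 500 bp was found for 22.0% of short regions, 23.2% of all regions and 29.2% of the short regions that passed.

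Where short regions had enough tags, the median spread of their counts between animals of a group was smaller than in longer regions with the same sums. The spread was expressed as the variance within groups over the variance that counting alone gives. Counting alone gives a mean of 1 over regions, and a median slightly below 1. At sums of 25 to 49 the median was 1.52 in short and 1.74 in longer regions. It fell at every further step in short regions, whereas in longer ones it was 1.63 at 50 to 99 tags and 1.69 at 100 to 128 before it exceeded 1.74. At 129 to 199 tags it was 1.25 in 323 short and 1.75 in 31984 longer regions, at 200 to 299 tags 1.07 in 105 and 1.79 in 25332, and at 300 to 777 tags 0.991 in 45 and 1.94 in 48513. The median of the best covered short regions was thus close to that of counting error alone, and that of longer regions of equal sum was higher. These are medians over regions of the same 14 libraries and carry no test.

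**Figure D2:**
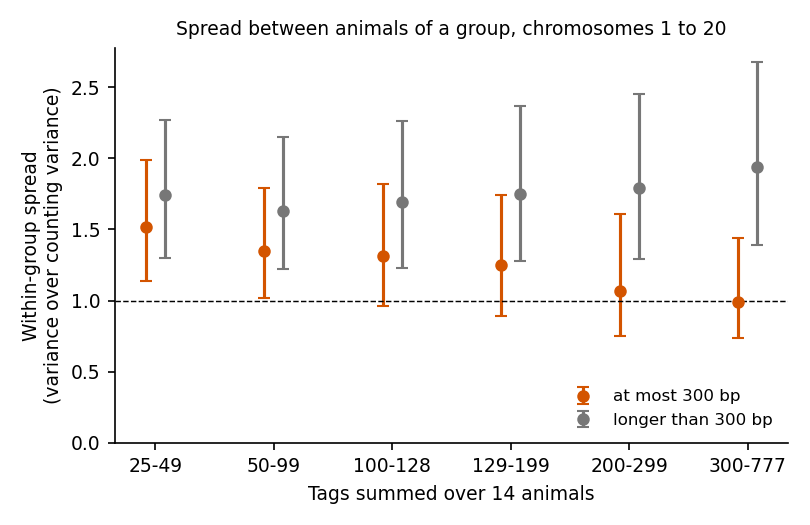
Median spread between animals of a group (variance within groups over counting variance, bars are quartiles) against the tag sum over 14 animals, for regions on chromosomes 1 to 20. The dashed line at 1 is the mean that counting error alone gives, and the median would be slightly lower. Short regions (orange) came near the line at the highest sums, 0.991 at 300 to 777 tags, while longer regions (grey) stood at 1.94.

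The share of an animal's tags that lay in short regions was then compared, as a single value per animal. It was 1.20, 0.912, 0.637, 0.817 and 0.785% in CTRL replicates 1 to 5, 0.852, 0.948, 0.963 and 0.961% in PILO replicates 2 to 5, and 0.795, 0.964, 0.935, 0.887 and 0.850% in PILO + KD replicates 1 to 4 and the unnumbered animal 211. The 95% Wilson intervals of these shares, which cover counting error only, were at most 0.0072 percentage points to either side. CTRL held both the highest and the lowest animal, and the other groups lay between them. Means were 0.870 ± 0.209% in CTRL (SD, n = 5), 0.931 ± 0.0527% in PILO (n = 4) and 0.886 ± 0.067% in PILO + KD (n = 5).

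No difference in this share passed the test. PILO exceeded CTRL by 0.0607 percentage points (two-sided exact permutation test, p = 0.587, adjusted over 3 comparisons 0.873) and PILO + KD exceeded CTRL by 0.016 (exact permutation p = 0.873, adjusted 0.873). PILO + KD was below PILO by a difference of -0.0447 (exact permutation p = 0.302, adjusted 0.873). The smallest p these group sizes allow is 0.00794. Without CTRL replicate 1 the differences from CTRL were 0.143 for PILO (exact permutation p = 0.0571) and 0.0984 for PILO + KD, and without CTRL replicate 3 they were 0.0024 and -0.0423, so 1 library in either direction set the value. Among FC101 libraries alone, PILO exceeded CTRL by 0.132 and PILO + KD exceeded CTRL by 0.161 (exact permutation p = 0.2 for both), and PILO + KD exceeded PILO by 0.0284 (p = 0.8 by the same exact test), the opposite direction of the value over all flow cells. The smallest p that the FC101 group sizes allow is 0.1.

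The 2 CTRL animals at the ends stood apart through the thinly covered regions. In CTRL replicate 1, 1.13% of tags lay in short regions below the filter, and in CTRL replicate 3 0.57%, while the other 12 animals had 0.718 to 0.888%. In the 473 short regions that passed, all 14 animals lay between 0.0673 and 0.0777% of tags. CTRL replicate 1 also had no tag in 9.53% of short regions, the lowest share of all animals, and was the highest of the 14 animals by CPM in 15.1% of them, against 12.2% of other regions. CTRL replicate 3 had no tag in 30.7% and was highest in 2.3%, against 4.29% of other regions. The same animals were at the ends for the next length class, with 12.0 and 8.46% of tags in regions over 300 bp and up to 600 bp. CTRL replicate 1 shared flow cell FC084 with PILO + KD replicate 1, at 0.795%. The part of the library, the flow cell and the tissue piece in these values was not tested.

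**Figure D3:**
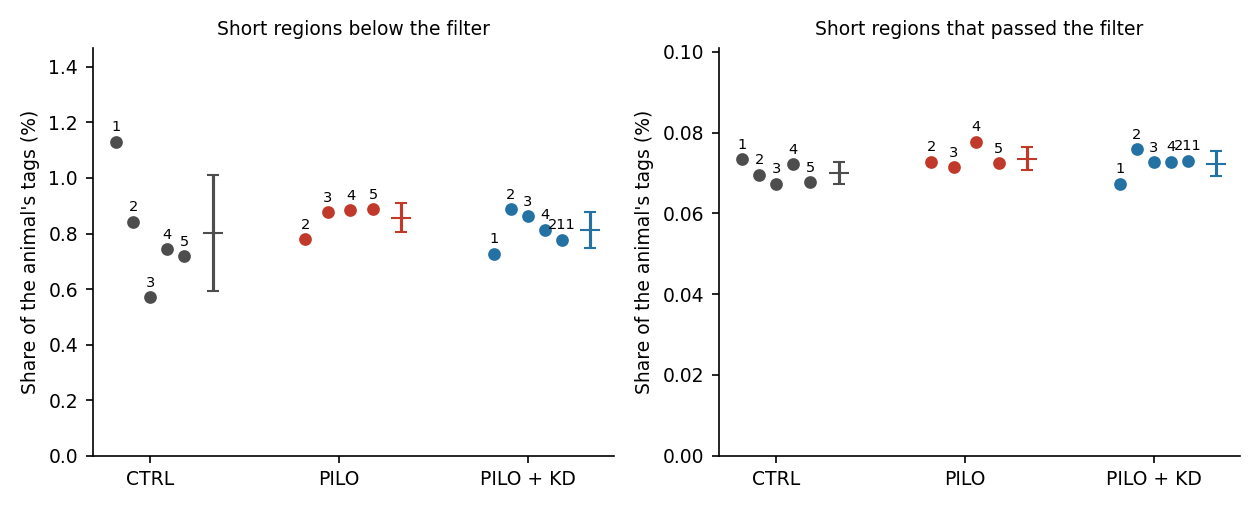
Share of each animal's tags (%) in short regions below the filter (left) and in the 473 that passed it (right), by group. Points are animals labelled with their replicate number, and bars are means ± SD. On the left CTRL replicates 1 and 3 lie outside the range of all other animals (1.13 and 0.57% against 0.718 to 0.888%), and on the right all animals lie between 0.0673 and 0.0777%.

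Differential methylation was tested with edgeR's quasi-likelihood test over all regions that passed the filter, with regions called at p below 0.01 before adjustment, the threshold the study used. PILO versus CTRL sets pilocarpine, status epilepticus, diazepam and the epilepsy that followed against saline, and their parts cannot be told apart. In this comparison, 1 of the 473 short regions was called, and it was higher in PILO. The background was 1.19% of all 155092 regions tested, and 0.713% for higher regions alone. No short region had a Benjamini-Hochberg adjusted p below 0.05 (edgeR, smallest 0.692), against 6 of all regions (0.00387%), and DESeq2 and limma-voom gave none among short regions in this or either other comparison. Before adjustment, 8 short regions had p below 0.05, all higher in PILO, or 1.69% against 5.13% of all regions (2.7% higher). The groups did not overlap in 6 short regions (1.27%), all higher in PILO, against 2.01% of all regions (1.03% higher).

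The called region was chr4:174752829-174753115 (287 bp). CTRL replicates 1 to 5 had 20, 17, 4, 3 and 6 tags, PILO replicates 2 to 5 had 17, 35, 16 and 22, and PILO + KD animals had 26, 25, 24, 19 and 14. In CPM this was 1.09 ± 0.789 in CTRL (SD, n = 5), 2.66 ± 0.199 in PILO (n = 4) and 2.53 ± 0.834 in PILO + KD (n = 5). All PILO animals were above all CTRL animals, but CTRL itself fell into 2 animals at 1.99 and 1.90 CPM and 3 at 0.38 to 0.654. The log2 fold change of PILO over CTRL was 1.24 (SE 0.371, edgeR adjusted p = 0.692), and the unadjusted p stayed below 0.01 when any single animal was left out. The next region, 303 bp away and 794 bp long, held 4646 tags and did not pass, with 36.3 ± 3.99 CPM in CTRL (SD, n = 5), 42.2 ± 8.75 in PILO (n = 4) and a log2 fold change of 0.21 (edgeR adjusted p = 1.0).

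The 3 other short regions with the smallest p in this direction had fewer tags and missed the cut-off. In chr16:34051356-34051653, CTRL animals had 7, 6, 9, 3 and 7 tags and PILO animals 20, 15, 13 and 5, a log2 fold change of 1.16 (SE 0.43, edgeR adjusted p = 0.833). PILO replicate 5 lay among the CTRL animals there. In chr1:263685049-263685331 the counts were 12, 7, 6, 2 and 6 against 7, 17, 17 and 12, and in chr8:124397204-124397489 they were 12, 7, 7, 3 and 5 against 6, 10, 18 and 19. Both pairs of groups overlapped in CPM, with log2 fold changes of 1.11 (edgeR adjusted p = 0.852) and 1.10 (edgeR adjusted p = 0.863).

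Short regions lower in PILO were further from the cut-off. The smallest p belonged to chr5:168588980-168589237, where CTRL animals had 23, 6, 14, 13 and 10 tags and PILO animals 3, 13, 5 and 5, a log2 fold change of -0.97 (SE 0.512, edgeR adjusted p = 0.997). PILO + KD was the most uneven group at this region, with 0, 20, 6, 7 and 13 tags. The next were chr12:5651506-5651795 (log2 fold change -0.72), chr1:21163227-21163497 (-0.65) and chr10:35802906-35803189 (-0.65), each with an edgeR adjusted p = 1.0. In all 4, the CPM of at least 1 PILO animal fell within the range of the CTRL animals.

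PILO + KD versus CTRL called 2 of the 473 short regions, 1 higher and 1 lower, against 0.92% of all regions (0.5% higher, 0.42% lower). None had an adjusted p below 0.05 (edgeR, smallest 0.981), against 2 of all regions (0.00129%), and 11 had an unadjusted p below 0.05, 9 of them higher, or 2.33% against 4.22% of all regions (1.95% higher). Groups did not overlap in 4 short regions (0.846% against 0.727%). This comparison shares its CTRL animals with the one before it, so the calls are not independent. Both the diet and the pilocarpine treatment with what followed it differ here, and their parts cannot be told apart. The higher region was again chr4:174752829-174753115, with a log2 fold change of 1.15 (SE 0.354, edgeR adjusted p = 0.981). Animal 211, at 1.48 CPM, lay below CTRL replicates 1 and 2. The call was lost without CTRL replicate 3, 4 or 5 or PILO + KD replicate 1, where the log2 fold change was 0.98, 0.95, 1.01 and 0.98.

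The lower region was chr18:23236624-23236923, which is exactly 300 bp long and so would fall out with a slightly lower limit. CTRL animals had 24, 21, 17, 13 and 24 tags, PILO animals 8, 21, 8 and 18, and PILO + KD animals 5, 16, 12, 8 and 13. In CPM, CTRL was at 2.24 ± 0.365 (SD, n = 5), PILO at 1.60 ± 0.507 (n = 4) and PILO + KD at 1.20 ± 0.394 (n = 5). PILO + KD replicate 2, at 1.69 CPM, overlapped with CTRL replicate 4 at 1.64. The log2 fold change was -0.87 (SE 0.305, edgeR adjusted p = 1.0). Within FC101 it was -0.42 and with flow cell as a covariate -0.80, and neither passed the cut-off. The call was lost without CTRL replicate 1, 2, 3 or 5 and without PILO + KD replicate 1, 3, 4 or 211, with log2 fold changes from -0.92 to -0.75.

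Other short regions chosen for this comparison did not pass. Among the higher ones, chr12:10124937-10125187 had 0.923 ± 0.473 CPM in CTRL and 1.80 ± 0.464 in PILO + KD (log2 fold change 0.96), and chr12:44407060-44407347 had 0.772 ± 0.369 and 1.69 ± 0.89 (1.11). Among the lower ones, chr6:25439881-25440143 had 2.37 ± 0.426 and 1.54 ± 0.513 CPM (-0.63), and chr7:139083643-139083923 had 1.18 ± 0.331 and 0.688 ± 0.0598 (-0.77). All values are means ± SD with n = 5 in each group, numbers in parentheses are log2 fold changes, and each had an edgeR adjusted p = 1.0. Only in chr7:139083643-139083923 were all PILO + KD animals of these 4 regions beyond every CTRL animal. The gap there, 0.774 against 0.783 CPM, was less than a single tag. In raw tags PILO + KD replicate 4 and CTRL replicates 2 and 4 were equal, at 7 each.

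PILO + KD versus PILO sets the ketogenic diet against standard diet after pilocarpine. The paper reports fewer seizures per week on the ketogenic diet, so diet and seizure burden cannot be told apart here. This comparison called 1 short region, lower in PILO + KD, against 0.351% of all regions (0.201% lower). No region of any length had an adjusted p below 0.05 by edgeR, DESeq2 or limma-voom, and 8 short regions had an unadjusted p below 0.05 (edgeR), 3 higher and 5 lower, or 1.69% against 2.3% of all regions (0.95 and 1.35%). Groups did not overlap in 7 short regions (1.48% against 0.746%). The called region was chr7:139083643-139083923 (281 bp). CTRL animals had 14, 7, 12, 7 and 12 tags, PILO animals 6, 31, 10 and 8, and PILO + KD animals 5, 6, 6, 7 and 6. PILO + KD was narrow at 0.632 to 0.774 CPM, and PILO reached from 0.888 to 2.55, so the groups did not overlap in CPM. They did overlap in raw tags, with 6 in PILO replicate 2 and 7 in PILO + KD replicate 4. The log2 fold change was -1.17 (SE 0.394, edgeR adjusted p = 1.0), and without PILO replicate 3, the animal with 31 tags, it was -0.72 and was not called. The call was also lost without PILO + KD replicate 2, 3 or 211, with log2 fold changes of -1.13, -1.16 and -1.14. Within FC101 the log2 fold change was -1.39 and with flow cell as a covariate -1.24, and neither passed the cut-off.

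**Figure D4:**
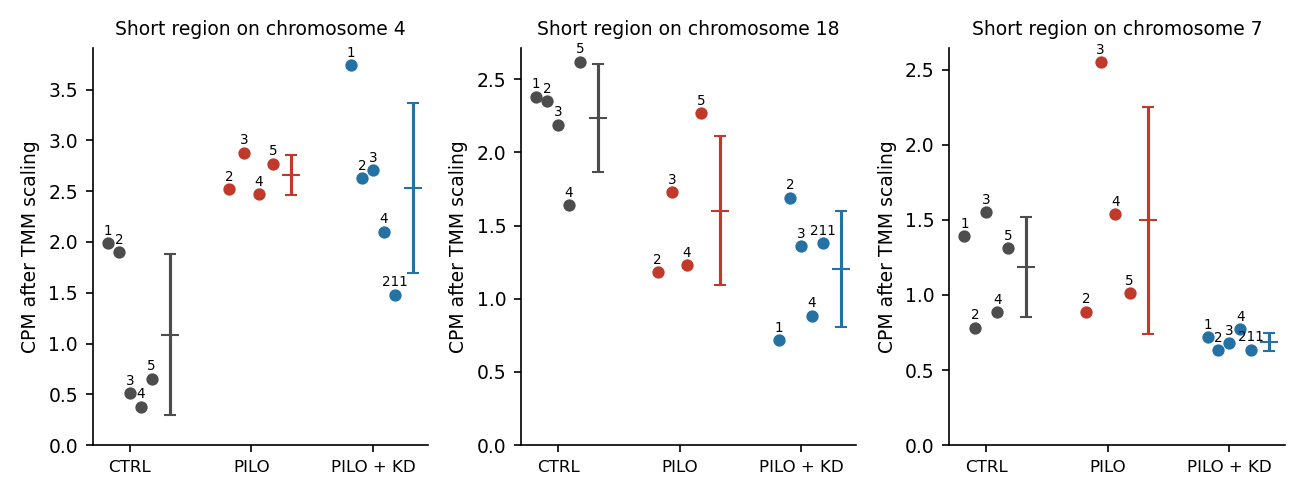
CPM after TMM scaling in each animal for the 3 short regions called in any comparison, by group. Points are animals labelled with their replicate number, and bars are means ± SD. CTRL is split at the chromosome 4 region (0.38 to 0.654 and 1.90 to 1.99 CPM), groups overlap at the chromosome 18 region, and PILO replicate 3 (2.55 CPM) stands above all others at the chromosome 7 region.

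The other short regions with the smallest p in this comparison rested on small counts. Higher in PILO + KD were chr3:10860313-10860609 (0.738 ± 0.181 CPM in PILO, n = 4, and 1.46 ± 0.392 in PILO + KD, n = 5, log2 fold change 0.91), chr9:113186648-113186919 (1.29 ± 0.422 and 2.10 ± 0.345 CPM, log2 fold change 0.71) and chr7:19212478-19212711 (1.08 ± 0.399 and 1.90 ± 0.522 CPM, log2 fold change 0.75). The last of these had a neighbour of 1621 bp at a distance of 1339 bp that was itself called as higher in PILO + KD, with 13.9 ± 3.59 CPM in PILO, 22.8 ± 1.47 in PILO + KD and a log2 fold change of 0.70 (edgeR adjusted p = 1.0). Lower in PILO + KD were chr11:22458348-22458642 (log2 fold change -1.03) and chr1:80316469-80316753 (-0.86), and all 5 had an edgeR adjusted p = 1.0. Of these 5, only chr3:10860313-10860609 had all PILO animals on one side of all PILO + KD animals.

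Over the 473 short regions that passed, the median log2 fold change was 0.0733 in PILO versus CTRL, 0.0715 in PILO + KD versus CTRL and 0.0226 in PILO + KD versus PILO. Over all regions tested it was 0.0038, 0.00774 and 0.00498. Higher values were found in 293 (61.9%), 290 (61.3%) and 257 (54.3%) of them, against 50.6, 51.4 and 51.0% of all regions. Scaling by DESeq2 size factors or by total tags alone gave 61.9 and 61.5% in PILO versus CTRL, 62.6 and 57.3% in PILO + KD versus CTRL and 55.8 and 50.3% in PILO + KD versus PILO, and with flow cell as a covariate the last of these was 47.4%. Over all regions the same scalings gave 50.0 and 49.2%, 52.8 and 46.0%, and 53.2 and 46.8%, and the flow cell covariate gave 47.8%. Both comparisons with CTRL use the same CTRL animals, and the values describe the members that passed, with no test. The median SE of a short region's log2 fold change was 0.364, 0.339 and 0.361, against 0.261, 0.244 and 0.261 over all regions, and the median size of the change, regardless of sign, was 0.21, 0.181 and 0.172. Longer regions with sums in the same range of 129 to 777 tags were called in 1.52, 1.16 and 0.444% of cases, and short regions in 0.211, 0.423 and 0.211%. The shares of short regions rest on 1 or 2 calls each. In PILO + KD versus CTRL both calls had sums of 200 to 777 tags, where they were 2 of 150 short regions (1.33%), against 1.14% of longer regions.

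All 29185 short regions could be described in a fit without the filter. It called 177 in PILO versus CTRL (115 higher, 62 lower), 118 in PILO + KD versus CTRL (70 and 48) and 170 in PILO + KD versus PILO (69 and 101). Without CTRL replicate 3, PILO versus CTRL had 67 higher and 79 lower, so the direction with more calls turned with 1 library. Within FC101 it turned in PILO + KD versus PILO, with 54 higher and 35 lower, and PILO + KD versus CTRL had 64 higher and 14 lower. Shares over all regions under these settings are not given, so a turn cannot be read as particular to short regions. The 177, 118 and 170 calls were 0.606, 0.404 and 0.582% of short regions. Over all regions the shares were 1.17% (0.737% higher, 0.435% lower), 0.946% (0.544 and 0.402%) and 0.536% (0.223 and 0.314%). No short region had an adjusted p below 0.05 in any of the 3 comparisons (edgeR, smallest 0.176, 0.556 and 1.0), against 0.00677, 0.00194 and 0.00161% of all regions, and 1100, 906 and 1016 had an unadjusted p below 0.05 (3.77, 3.10 and 3.48%, against 5.18, 4.53 and 3.23%). In both comparisons with CTRL the share of short regions called was below the background, and in PILO + KD versus PILO it was near it. At equal tag sums below the filter, the share in PILO + KD versus PILO was lower in short regions than in other regions at every step. It was 0.955 against 1.37% at 1 to 24 tags and 0.229 against 0.649% at 100 to 128, where 1 short region was called. The median SE was 0.88, 0.823 and 0.879 on the log2 scale, so that 2 SE came to 1.76, 1.65 and 1.76.

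**Figure D5:**
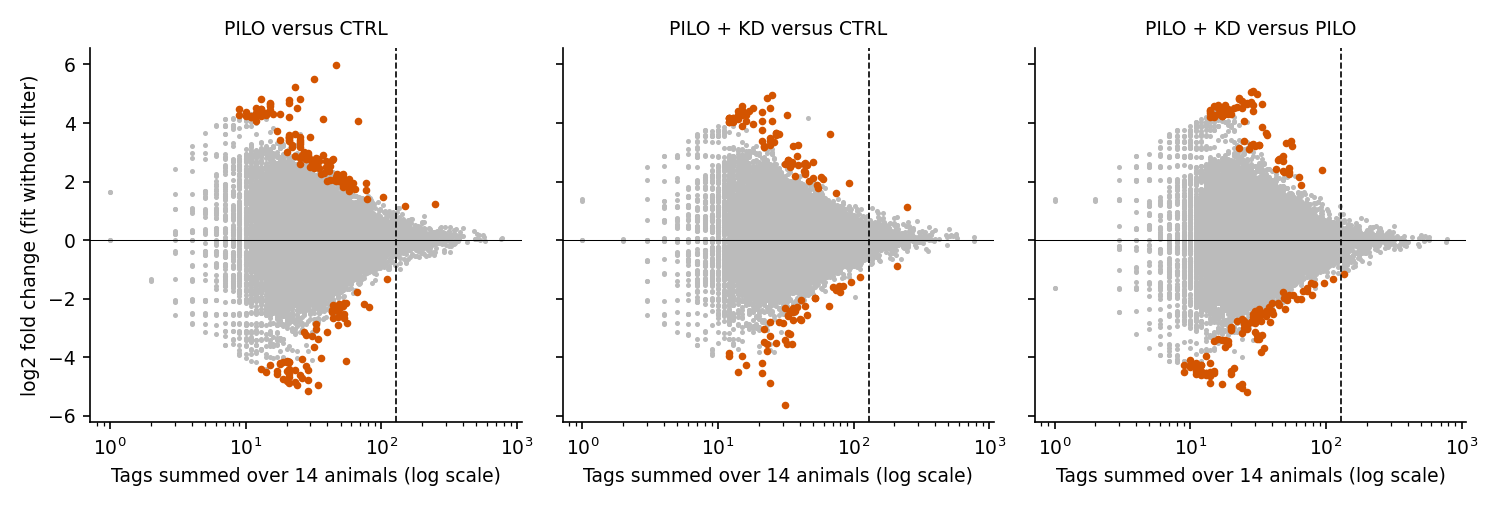
Log2 fold change of each of the 29185 short regions in the fit without a filter against its tag sum over 14 animals (log scale), for the 3 comparisons. Orange points have an unadjusted p below 0.01, and the dashed line is the filter at 129 tags. Nearly all of the 177, 118 and 170 called regions lie to the left of the filter, where only large fold changes reach the cut-off.

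The calls below the filter rested on a few tags per animal, as the region with the smallest p in each comparison shows. These 3 were picked after their values were seen. In chr12:33365345-33365628 (284 bp, 55 tags), CTRL animals had 10, 4, 6, 5 and 9 tags, PILO animals 0, 0, 1 and 0, and PILO + KD animals 4, 5, 5, 3 and 3 (PILO versus CTRL, edgeR adjusted p = 0.176). PILO animals had at most 1 tag, which is within the limit of 3 tags that a count of 0 allows, as are the 3 tags of PILO + KD replicate 4 and animal 211. That limit holds for a single library. As groups, PILO + KD (0.318 CPM or more) lay above PILO (0.154 CPM or less). The log2 fold change of PILO + KD over PILO was 3.39 (SE 0.964) and did not pass adjustment. In chr2:79024948-79025238 (31 tags), CTRL replicates 3 and 5 had 17 and 12 tags, PILO replicates 2 and 3 had 1 each, and all other animals, including every PILO + KD animal, had none (PILO + KD versus CTRL, edgeR adjusted p = 0.556). The call rested on those 2 CTRL animals. In chr20:41294295-41294562 (23 tags), PILO animals had 1, 5, 2 and 7 tags, CTRL animals 1 to 3, and no PILO + KD animal had any (PILO + KD versus PILO, edgeR adjusted p = 1.0). PILO replicates 3 and 5 were the only animals with more than 3 tags there.

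Animals resembled each other no more within than between groups in the short regions that passed. The correlation of log2 CPM across the 473 regions averaged 0.495 for 26 pairs of animals of the same group (0.269 to 0.677) and 0.495 for 65 pairs of different groups (0.259 to 0.665). Over all 155092 regions tested the averages were 0.909 and 0.908. These correlations are across regions, which are not independent replicates, and the short regions that passed span a narrower range of sums than all regions tested.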

How the data were processed

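Methylated DNA of 14 rats was captured with MethylMiner from 500 ng hippocampal DNA per animal and sequenced as single reads of 36 cycles. Per the labels and the study's methods, the authors aligned reads to RN4 with BWA, called peaks between all pairs of libraries with MACS 1.4.0 (shift size 75 bp), merged regions with bedtools and removed duplicates. The deposited values are counts of tags per region and animal, made by the authors without scaling or filtering.

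From these counts, regions on chromosomes 1 to 20 of at most 300 bp were taken. The members, lists and tests were chosen with earlier results of these data known. Regions with a tag sum below the 50th centile (129) were removed, counts were scaled with TMM, and all 155092 remaining regions were fitted in edgeR 4.0.16 (R 4.3.3; glmQLFit and glmQLFTest, a mean per group, 14 animals, common dispersion 0.0382), with Benjamini-Hochberg adjustment over all of them. Only short regions were then counted. SE is the log2 fold change over the square root of F. Shares of tags were compared by exact permutation tests over animals. Conditions came from the sample labels, and animals are the replicates. The fit was tested on simulated counts with known changes.

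Named regions are those with the smallest p in each direction (4 in PILO versus CTRL, 3 in the other comparisons), the 3 with the largest sum, the 3 densest, the 2 shortest, and the best covered at the length limit and 1 bp over it. The 3 regions from the unfiltered fit were added after their values were seen. Alternatives changed the scaling, the filter, the test (limma-voom from limma 3.58.1 and DESeq2 1.42.0), the set of animals, the covariates, the p cut-off and the length limit. Short regions on chromosome X (479) and on unplaced sequence (525) were left out by the rule.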

Additional observations from a re-analysis of the deposited data

Results flagged for a closer look

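Of 87 groups of values checked for an animal far from the rest of its group, 4 stood out, and chance alone gives about 1 in 20. In the share of tags in short regions, PILO replicate 2 was lowest at 0.852%, with the other PILO animals at 0.948 to 0.963%. In chr1:263685049-263685331, PILO + KD replicate 2 was lowest at 0.421 CPM, with the others at 1.13 to 1.38. In chr18:66471394-66471693, the best covered region of exactly 300 bp, CTRL replicate 5 was lowest at 2.07 CPM, with the others at 3.08 to 3.22. In chr12:33365345-33365628, PILO replicate 4 was highest at 0.154 CPM, which is a single tag, and the other PILO animals had none.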

How the results depend on the processing

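Counts of 1, 2 and 1 called short regions (PILO versus CTRL, PILO + KD versus CTRL and PILO + KD versus PILO, in this order throughout) are small enough that most alternatives moved them by over 1.5 times. The number tested, 473 as reported, changed with the filter and the length limit. With no filter the counts were 177, 118 and 170 of 29185. With at least 10 tags in every animal they were 0 in each of 100, and with filterByExpr 2, 4 and 2 of 737. Among the 473, 8, 11 and 8 had an unadjusted p below 0.05, and none had an adjusted p below 0.05. At a length limit of 250 bp the counts were 0 in each of 85, and at 400 bp 25, 14 and 10 of 3181. The same fit called 1.19, 0.92 and 0.351% of all regions. Within FC101 the counts were 3, 2 and 0, and with flow cell as a covariate 2, 1 and 0, each of 473. Shares over all regions are not given for FC101, the covariate or the left-out animals. DESeq2 and limma-voom called 0 in PILO + KD versus PILO. Leaving out single animals gave 1 to 3, 0 to 3 and 0 to 2. PILO versus CTRL had 3 without CTRL replicate 1 or PILO replicate 2 or 3, and 2 without CTRL replicate 3 or 5 or PILO replicate 5. PILO + KD versus CTRL had 0 without CTRL replicate 5, and 1 without CTRL replicate 4 or PILO + KD replicate 1, 3 or 4. PILO + KD versus PILO had 0 without PILO replicate 3 or animal 211, and 2 without PILO + KD replicate 3.

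In the unfiltered fit the counts ranged from 127 to 197, 111 to 148 and 144 to 185 with single animals left out. Chosen after seeing the data, FC101 alone gave 78 in PILO + KD versus CTRL and 89 in PILO + KD versus PILO, and the flow cell covariate gave 71 and 100. Under a replicate block, which left out the unnumbered animal 211, the unfiltered counts were 77, 42 and 66, and the filtered counts 1, 1 and 0. For none of these settings is the share over all regions given. Over all regions tested, deviations of same-numbered animals from their group means correlated at -0.231 to 0.145 between CTRL and PILO, -0.286 to 0.193 between CTRL and PILO + KD and -0.0852 to 0.283 between PILO and PILO + KD. They averaged 0.0103, -0.00815 and 0.127, against -0.00192, 0.00158 and -0.0294 for animals of different number. With 3 or 4 same-numbered pairs per comparison, these values cannot decide whether the numbers pair the animals. The cause of the differences in the counts of calls was not tested.

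The difference in the share of tags, in percentage points, ranged from 0.0024 to 0.143, from -0.0423 to 0.0984 and from -0.0709 to -0.0221 with single animals left out. PILO + KD fell below CTRL in 3 of these, by -0.0423 without CTRL replicate 3, -0.00525 without CTRL replicate 5 and -0.00346 without PILO + KD replicate 2. In PILO + KD versus PILO it was 0.0284 within FC101, the reverse of -0.0447. For the named regions, 441 values under an alternative kept their direction and side of the cut-off, 24 no longer passed, 15 newly passed, and none reversed. Most of the 441 belonged to regions that had not passed to begin with. All 24 losses fell on called regions, chr18:23236624-23236923, chr7:139083643-139083923 and, in PILO + KD versus CTRL, chr4:174752829-174753115. These regions were picked by smallest p in these same data, so a kept direction is no independent support. The filter left 473 short regions, and 100 had at least 10 tags in every animal.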
